A study of Mus musculus with 2 samples.

Results

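The microRNA (miRNA) genes from Mir3057 to Mir3113 are a late block of the mouse catalogue, here 47 of the 2202 miRNA genes counted. Genes were taken by the number in their GENCODE M21 symbol. Mir3065 and the 10 genes of the block on chromosome 12 were left out, so 11 of 58 genes of the number range are not described. Small RNA was sequenced from hippocampus of B6CASTF1/J animals, females 2 months of age, an F1 hybrid of C57BL/6J and a castaneus-derived strain. The labels speak of a hippocampal layer and do not name it, and no treatment or second genotype is given. There is 1 group of 2 libraries, called replicate 1 and replicate 2. Their tissue records differ and their donor record is the same. Whether they came from different animals is not stated, so the spread between them may be technical. With no other group, the data give levels, and the 2 libraries can be set against each other.

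A miRNA is cut from a hairpin in a longer transcript, first by the Drosha complex in the nucleus and then by Dicer, and 1 or both arms of the hairpin guide Argonaute proteins to messenger RNAs. Pairing rests mainly on the seed, bases 2 to 8 of the mature miRNA. Numbers are given in order of registration, so a high number marks a late description and says nothing of function. Genes registered late are often lowly expressed, restricted to few tissues, or processed in unusual ways. In mirtrons, for example, splicing releases the hairpin and replaces the Drosha cut at the hairpin ends that lie on splice sites.

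The sequences of the most abundant members are shown first, since the counts do not separate the arms of a hairpin and a gene's value stands for all of its arms. RefSeq (GRCm38.p6) held mature sequences for 43 of the 47 genes. Mir3078, Mir3079, Mir3106 and Mir3107 had none in that table. Seeds are in capitals, 5′ to 3′.
miR-3102-5p: gUGAGUGGccaggguggggcug
miR-3102-5p.2-5p: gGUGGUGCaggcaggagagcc
miR-3102-3p.2-3p: cUCUACUCccugccccagcca
miR-3102-3p: gAGCACCCcauuggcuacccaca
miR-3099-5p: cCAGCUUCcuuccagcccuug
miR-3099-3p: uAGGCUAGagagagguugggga
miR-3059-5p: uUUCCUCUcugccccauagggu
miR-3059-3p: cCUCUAGGgaagagaagguugg
miR-3093-5p: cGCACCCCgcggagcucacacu
miR-3093-3p: uGUGGACAccgugggagguugg
miR-3086-5p: uAGAUUGUaggcccauugga
miR-3086-3p: cCCAAUGAgccuacagucuaag
miR-3083-5p: aGGCUGGGaauauuucagagau
miR-3083-3p: uCCGAAACauucccagccuuua
miR-3064-5p: uCUGGCUGuuguggugugcaaa
miR-3064-3p: uGCCACACugcaacaccuuaca
miR-3057-5p: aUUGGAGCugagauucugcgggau
miR-3057-3p: uCCCACAGgcccagcucauagc
miR-3061-5p: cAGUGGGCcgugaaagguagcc
miR-3061-3p: cUACCUUUgauaguccacugcc
miR-3085-5p: aGGUGCCAuuccgagggccaagagu
miR-3085-3p: uCUGGCUGcuauggcccccuc

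Among the 82 distinct mature names of the block, 1 seed occurred in a pair of arms, CUGGCUG of miR-3064-5p and miR-3085-3p. Those genes lie on chromosomes 11 and 19. Of the arms in the table, 2 shared a seed with a lower-numbered miRNA of the table, which holds 1679 mature names. The 4 members without a mature sequence there could not be compared. Among them is Mir3107, whose hairpin shares 22 identical bases with the older Mir486. The seed of miR-3102-5p is that of miR-702-5p, and Mir702 had 831 counts in replicate 1 and 1024 in replicate 2. The seed of miR-3091-3p is that of miR-2861, and neither Mir3091 (1 and 0 counts) nor Mir2861 (0 and 0) was detected.
miR-702-5p: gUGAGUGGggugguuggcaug
miR-3091-3p: cGGGCCUGaccagucucaagac
miR-2861: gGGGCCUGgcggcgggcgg

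Depth set what could be seen. Replicate 1 had 4517648 and replicate 2 had 5979247 reads on the sense strand of miRNA genes, and a count of 0 allows up to 0.664 and 0.502 counts per 1000000 such reads (CPM). Reads mapping to several places, 45.9% and 48.4% of all reads, were given to no gene. Neuronal marker miRNAs of the tissue summed to 47442 and 52239 CPM over 9 genes, of which 6 had at least 10 counts in both libraries. None of the 9 was at 0 in both, and Mir124a-2 had 4 and 0 counts. The endothelial marker, 1 gene, had 11284.9 and 13590.5 CPM, and the 2 oligodendrocyte markers summed to 6526 and 6974 CPM. Markers of other cells than neurons were thus present too. Those of microglia and leukocytes summed to 1099 and 1192 CPM, and those of red cells to 95.4 and 142.5 CPM. The liver marker, 1 gene, had 41.39 and 35.96 CPM. Muscle markers summed to 82.6 and 30.1 CPM over 6 genes, of which 1, Mir206, had at least 10 counts in both libraries. Mir206 alone had 79.0 and 29.4 CPM, and Mir1a-1, Mir133a-1 and Mir133a-2 were at 0 in both libraries.

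Detection was common in the block and levels were low. Of the 47 members, 21 (44.7%) had at least 10 counts in both libraries, against 19.1% of all 2202 genes. Another 11 were seen in both libraries but under 10 counts in at least 1, 6 were seen in 1 library, and 9 had no count, 19.1% of the block against 64.9% of all genes. Genes numbered under 1000 were detected in 52.6% of cases (276 of 525) and those numbered 6000 and up in 15.3% (64 of 419). Of all 2202 genes, 1028 have a symbol without Mir and a number, and 13 of these (1.26%) were detected. No count fell on 93.6% of them in either library, and they are part of the values over all genes. Because reads that map to several places are lost, the same was counted over genes that share no stretch of 20 bases with another miRNA gene. There, 20 of 40 members (50.0%) and 335 of 1118 genes (30.0%) were detected. These are counts of genes, described without a test.

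**Figure D1:**
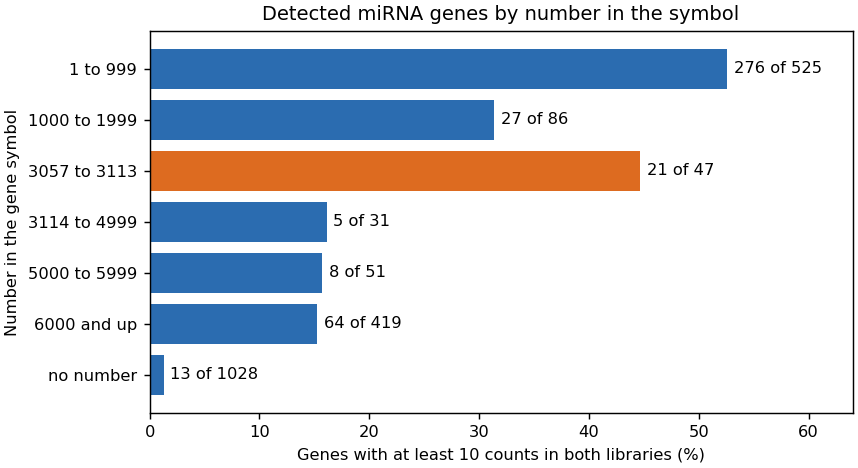
Percent of miRNA genes detected, by at least 10 counts in each library (horizontal axis), by the number in the gene symbol (vertical axis), with the number detected of all genes beside each bar. The bar of the block, in orange (21 of 47), lies between those of numbers under 1000 (276 of 525) and from 1000 to under 2000 (27 of 86). Not drawn are 4 genes numbered from 2000 up to the block, with 0 detected, and the 11 left out.

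The block held little of the library. Its members summed to 7905 counts in replicate 1, 0.175% of reads on miRNA genes (95% Wilson interval 0.171 to 0.179), and to 9708 in replicate 2, 0.162% (0.159 to 0.166). The mean was 0.169% ± 0.00892 (SD, n = 2). The median level of the detected members was 6.84 CPM, against 85.3 CPM over all 420 detected genes and 301.1 CPM for those numbered under 1000. Of the 47 members, 2 exceeded 100 CPM, 7 lay between 10 and 100 CPM, and 29 had a count but stayed under 10 CPM. Reads copied by PCR are not independent molecules, so every interval here covers counting error only.

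Mir3102 and Mir3099 carried most of that sum, 84.1% of the block's counts in replicate 1 and 83.1% in replicate 2. Mir3102 (ENSMUSG00000093296.1), at positions 100882306 to 100882409 of chromosome 7 on the minus strand (mm10), had 4327 and 4156 counts. Its level was 957.8 and 695.1 CPM, 826.4 ± 185.8 (SD, n = 2), which ranked 105 of 2202 genes. It lies in Arhgef17, whose product is a guanine nucleotide exchange factor. Mir3099 (ENSMUSG00000092815.1), at 6803587 to 6803670 of chromosome 7 on the plus strand, had 2319 and 3908 counts, or 513.3 and 653.6 CPM, 583.5 ± 99.2 (SD, n = 2). It ranked 123 and lies deep in a 169340-base intron of Usp29, an imprinted gene beside Peg3 that is expressed from the paternal copy. The order of the pair was the same in both libraries, with Mir3102 above Mir3099.

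Mir3059 came next. It lies near the middle of a 182041-base intron of Mgat4c, a glycosyltransferase gene on chromosome 10, and had 431 and 520 counts, 95.4 and 87.0 CPM. Mir3093 followed with 176 and 129 counts (39.0 and 21.6 CPM), Mir3086, in an intron of the chaperone gene Hspa12a, with 123 and 158 (27.2 and 26.4 CPM), and Mir3083 with 31 and 243 (6.86 and 40.6 CPM). The libraries were close for Mir3059 and Mir3086 and far apart for Mir3083. Mir3064 in Ddx5, an RNA helicase gene, had 86 and 72 counts, Mir3057 in Apba3 had 60 and 83, and Mir3061 in Ppp2ca, the catalytic subunit of protein phosphatase 2A, had 49 and 72. Mir3085, with no host gene on its strand, had 38 and 42 counts.

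The other 11 detected members lay between 2.05 CPM (Mir3082) and 6.84 CPM (Mir3097). Mir3097 had 24 and 50 counts, Mir3078 28 and 39, Mir3080 27 and 26, and Mir3058 23 and 20. Mir3076 had 15 and 30 counts, Mir3106 21 and 22, Mir3074-1 28 and 10, Mir3087 17 and 24, Mir3088 13 and 17, Mir3100 11 and 12, and Mir3082 11 and 10. The ranges of the 2 libraries overlapped between most neighbours in this order of mean level. They did not overlap between Mir3078 and Mir3080, or between Mir3088 and its neighbours Mir3087 and Mir3100. Among the 10 highest members, the ranges of Mir3102, Mir3099 and Mir3059 were separate from those of their neighbours, as was that of Mir3061, while Mir3093, Mir3086, Mir3083, Mir3064 and Mir3057 each overlapped the next in order up or down. Of the members below the minimum of 10 counts, Mir3060 (12 and 8), Mir3077 (6 and 12), Mir3104 (9 and 7) and Mir3107 (1 and 14) came nearest to it. The remaining 7 seen in both libraries, Mir3094, Mir3103, Mir3062, Mir3101, Mir3081, Mir3089 and Mir3098, had at most 6 counts in a library. Mir3109, Mir3091, Mir3095, Mir3113, Mir3105 and Mir3075 were seen in 1 library, with 1 or 2 counts.

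No count fell on Mir3063, Mir3074-2, Mir3079, Mir3084-1, Mir3090, Mir3092, Mir3108, Mir3110 or Mir3112 in either library, which was not detectable at this depth rather than absent. For 3 of these 9, reads that map to several miRNA genes limit the count further. Shared stretches were sought only among the miRNA genes counted here, so copies elsewhere in the genome were not examined for any gene. The hairpin of Mir3084-1 is identical over all its 69 bases to another miRNA gene, Mir3074-2 shares 30 bases with Mir3074-1, and Mir3110 shares 20 bases with Gm24325. The 9 include genes inside Igf2bp1, Fndc3b and Zfhx3. The expression of host genes was not measured in these libraries.

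**Figure D2:**
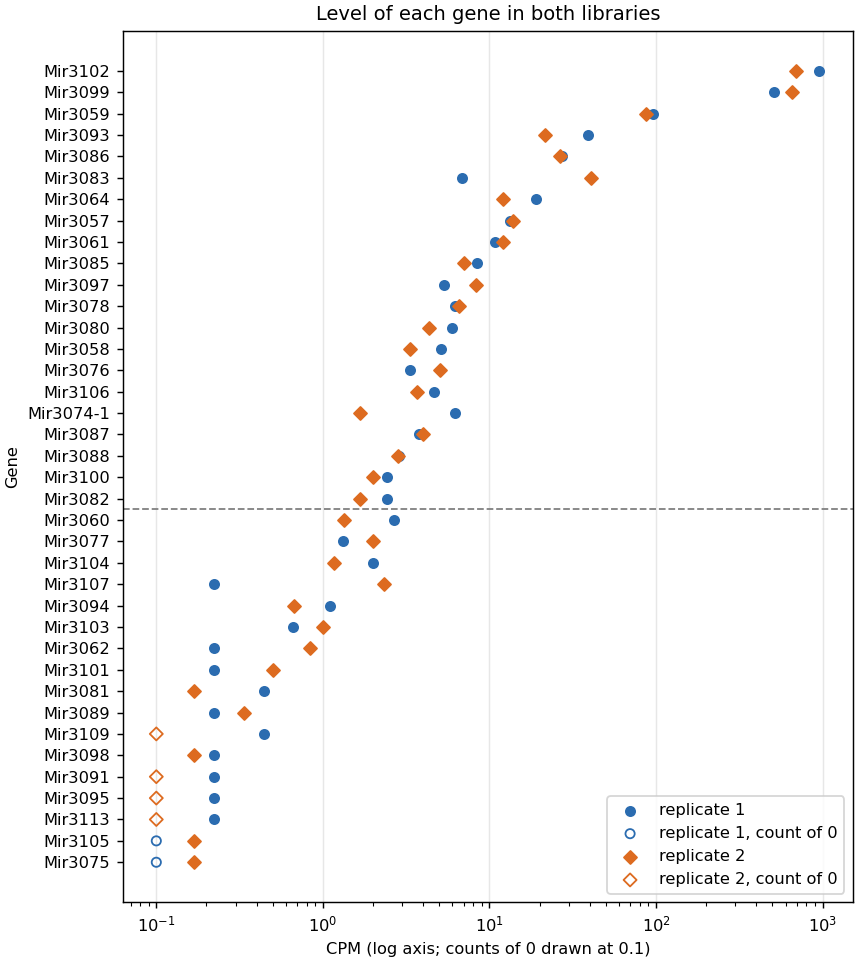
Level in CPM (horizontal log axis) of the 38 members with a count, ordered by mean level, with a circle for replicate 1 and a diamond for replicate 2; open symbols at 0.1 stand for counts of 0. Genes above the dashed line had at least 10 counts in both libraries; Mir3102 and Mir3099 stand apart at the top, and among genes seen in both libraries the symbols of Mir3107 and Mir3083 lie farthest apart.

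Most members lie inside other genes. On the same strand, 40 of 47 (85.1%) lay within a host gene, against 53.5% of all miRNA genes, and 37 of these hosts code for proteins. By GENCODE transcripts of the host, 24 hairpins were intronic, 11 lay within an exon of at least 1 transcript, and 5 crossed an exon edge. Of the members with a host 19 of 40 were detected, and of those without a host 2 of 7, Mir3083 and Mir3085. Detection by host was not counted over all genes, so no difference is read from these counts. Folding with RNAfold gave members a median of -46.4 kcal/mol per 100 bases, against -36.9 over all genes and -43.7 over all detected genes. The hairpin of Mir3086, at -72.3 per 100 bases, was the most stable by this measure among the 420 detected genes. The 9 members without a count had a median of -43.6, near that of all detected genes.

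A splice site formed a hairpin end in a good part of the block. In 12 members (25.5%) at least 1 end of the hairpin lay within 5 bases of a splice site of the host, against 10.7% of all genes and 5 of 525 genes numbered under 1000. Among genes numbered 6000 and up the share was 48.7%, and of the 1028 genes without a number 4 had such an end. Such an end requires a host, which members have more often. Among genes with a host, 12 of 40 members and 235 of all 1179 had a hairpin end at a splice site. Only Mir3102 had both ends there, and its 104 bases are the whole intron of Arhgef17, which 1 or more GENCODE transcripts retain as exon. The other 11 members had only the 3′ end at the splice site. This was also the common form over all genes: of 235 with such an end, 204 had only the 3′ end. Another 22 had both ends and 9 only the 5′ end at a splice site. In these 11 members the intron ended in AG at the hairpin's 3′ end. That follows from choosing ends at annotated splice sites and is no separate result. The hairpins of the 11 other than Mir3102 were short, with a median of 64 bases against 85 for the 35 members without such an end. Long ones among the 12 were Mir3102 and Mir3062, whose 105 bases span the whole 97-base intron of Pfas and 8 exonic bases. Of those with only the 3′ end there, the 4 with the highest level are printed with the last 2 bases of the intron in capitals.
Mir3064: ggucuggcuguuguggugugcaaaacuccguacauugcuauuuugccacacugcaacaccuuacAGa
Mir3097: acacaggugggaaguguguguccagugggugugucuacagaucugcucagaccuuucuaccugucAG
Mir3076: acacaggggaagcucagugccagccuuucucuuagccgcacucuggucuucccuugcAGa
Mir3087: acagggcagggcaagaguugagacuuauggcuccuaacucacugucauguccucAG

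Of these 12 splice-site members 7 were detected, against 14 of the other 35, and against 29.4% of all genes with such an end. They held 57.1% of the block's counts in replicate 1 and 45.2% in replicate 2, almost wholly through Mir3102. The arms of Mir3102 printed above tile the intron, with miR-3102-5p on its bases 1 to 22 and miR-3102-3p on bases 81 to 103. Its inner arms, miR-3102-5p.2-5p and miR-3102-3p.2-3p, lie on bases 23 to 43 and 60 to 80, directly beside the outer arms. The seed of miR-3102-5p thus lies on bases 2 to 8 of the intron, at the 5′ splice site. Without Mir3102 the splice-site members lay between 0.529 CPM (Mir3062) and 15.5 CPM (Mir3064). The hosts of the other detected ones were Rgs12 (Mir3097), a regulator of G protein signalling, Tkt (Mir3076), the transketolase, Abca2 (Mir3087), a lipid transporter, Dmpk (Mir3100), the myotonic dystrophy kinase, and Stub1 (Mir3082), a ubiquitin ligase.

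Some members lie beside known neural miRNA genes. Mir3093 (chromosome 3, 88215171 to 88215257) is 340 bases from Mir9-1 on the same strand and in the same non-coding host, Gm3764. Mir3093 had 176 and 129 counts and Mir9-1 had 22 and 101. Mir3078 (64591185 to 64591271) is in an exon of Mir124a-1hg on chromosome 14, 443 bases from Mir124a-1, and had 28 and 39 counts, while Mir124a-1 had 13 and 9. miR-9 and miR-124 are known as abundant neural miRNAs, and both members of the block were counted above the better-known neighbour when the libraries are summed. Mir9-1 shares 33 bases and Mir124a-1 shares 32 bases with another miRNA gene. Reads inside such a stretch map to several places and are given to no gene, whereas Mir3093 and Mir3078 share no stretch of 20 bases with another miRNA gene. In CPM, the ratio of replicate 2 over replicate 1 was 0.554 for Mir3093 and 3.47 for Mir9-1, and both passed the test of the libraries described further on. The ratio was 1.05 for Mir3078, which did not pass, and Mir124a-1 had too few counts to be tested.

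At 3 loci a member lies opposite an older, lower-numbered miRNA gene, and at each the older gene had more reads. Mir3074-1 and Mir3074-2 lie on the other strand of Mir24-1 and Mir24-2, in the miR-23, miR-27 and miR-24 clusters of chromosomes 13 and 8. Mir3107 lies on the other strand of Mir486, a miRNA of red cells and muscle, within Ank1 on chromosome 8. The smaller hairpin of each pair lay wholly within the larger, over 68, 83 and 90 bases. The arms show how closely the strands mirror each other: miR-3074-5p, which is the same in both Mir3074 genes, overlaps the sites of miR-24-3p by 20 of its 22 bases. Seeds are in capitals.
miR-3074-5p: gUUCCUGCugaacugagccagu
miR-24-3p: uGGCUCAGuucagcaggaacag
miR-3074-2-3p: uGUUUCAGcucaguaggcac
miR-24-2-5p: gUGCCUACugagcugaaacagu
miR-24-1-5p: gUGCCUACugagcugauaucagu

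Mir3074-1 (63301199 to 63301283 of chromosome 13, minus strand, in a Fancc intron) had 28 counts in replicate 1 and 10 in replicate 2, and Mir24-1 had 101 and 474. The strand of the member held 21.7% of the pair's reads in replicate 1 (95% Wilson interval 15.5 to 29.6) and 2.07% in replicate 2 (1.13 to 3.76), so the intervals did not overlap. Both genes moved, in opposite directions. Mir3074-1 was 3.71-fold higher in replicate 1, and Mir24-1 was 3.55-fold higher in replicate 2. Mir3074-2 (84208825 to 84208907 of chromosome 8, minus strand) had 0 counts in both libraries, while Mir24-2 had 295 and 437. Those pair sums allow a share of up to 1.29% and 0.871% for the member by the upper Wilson bound.

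Mir3107 (23142573 to 23142662 of chromosome 8, minus strand) had 1 and 14 counts, and Mir486 had 100 and 126. The member's strand held 0.990% (0.175 to 5.40) and 10% (6.05 to 16.1) of the pair, again with intervals that did not overlap. The level of Mir486 itself was close in the libraries, at 22.1 and 21.1 CPM, and it is 1 of the 3 genes in the red cell sum given above. These values are uncertain, because Mir3107 and Mir486 share 22 identical bases, both Mir3074 genes share 30 and both Mir24 genes share 28, and a read within such a stretch carries no gene here. In all 3 pairs, the antisense count of the member equalled the sense count of the older gene in both libraries. Without regard to strand, all 6 genes of the pairs had 0 counts.

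**Figure D3:**
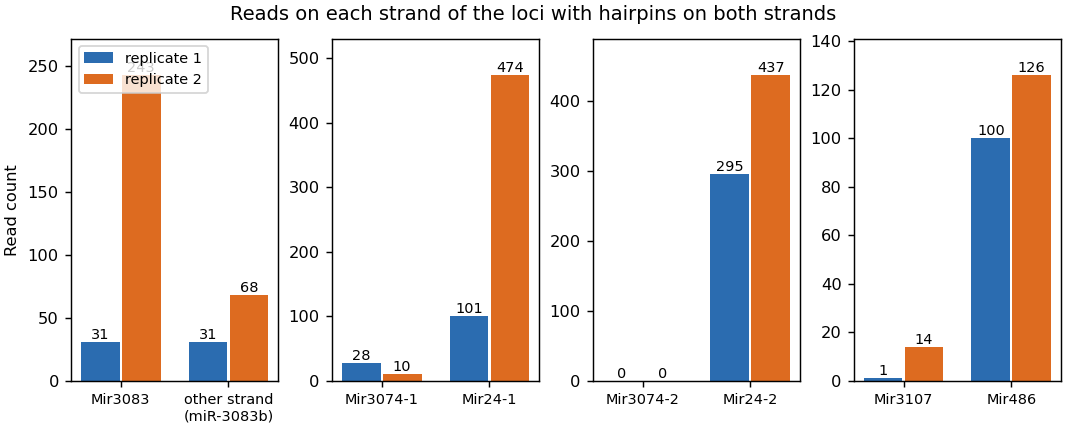
Read counts (vertical axes, each from 0 and each on its own scale) on the strand of the member and on the other strand, for replicate 1 and replicate 2, at the opposite pairs and at Mir3083. The older gene is the taller at Mir24-1, Mir24-2 and Mir486, while at Mir3083 the member's own strand has 31 and 243 reads and the other strand 31 and 68.

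At another locus reads fell on both strands without a second miRNA gene in GENCODE M21. Mir3083 (26948056 to 26948119 of chromosome 17, minus strand) had 31 and 243 sense counts and 31 and 68 antisense counts. Of the 2138 miRNA genes with no annotated miRNA opposite, 4 (0.187%) had at least 10 antisense counts in both libraries, against 42.2% of the 64 genes with one. Mir3083 had the highest antisense count of the 4. RefSeq lists a hairpin there as Gm51291, with the arms of miR-3083b, on the plus strand at 26948060 to 26948116. Both hairpins are printed with the mature arms in capitals.
Mir3083: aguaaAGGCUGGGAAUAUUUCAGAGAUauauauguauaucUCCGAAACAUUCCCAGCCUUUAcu
Gm51291: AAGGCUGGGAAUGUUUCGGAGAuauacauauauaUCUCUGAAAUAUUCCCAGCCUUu

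The hairpins of both strands are alike in sequence. miR-3083-5p and miR-3083b-5p have the same base at 19 of 21 aligned positions when shifted by 1 base, and miR-3083-3p and miR-3083b-3p at 18 of 20. On the genome, miR-3083-5p overlaps miR-3083b-3p by 21 bases and miR-3083-3p overlaps miR-3083b-5p by 20. The sense strand took 50.0% of the locus in replicate 1 (37.9 to 62.1) and 78.1% in replicate 2 (73.2 to 82.4). Between the libraries, the sense level was 5.92-fold and the antisense level 1.66-fold higher in replicate 2.

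**Figure D4:**
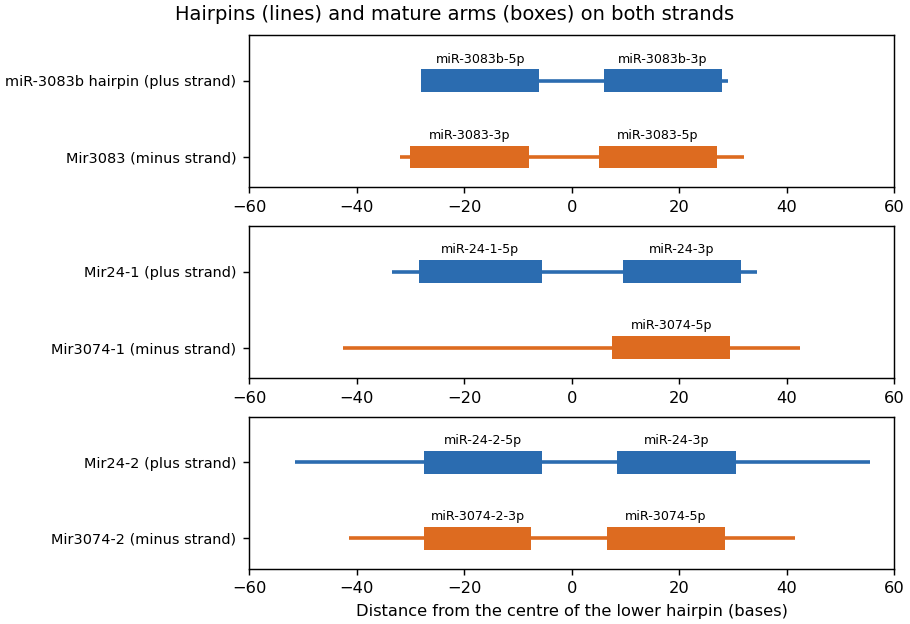
Position of hairpins (lines) and mature arms (boxes) on the plus and the minus strand at 3 loci, with distance in bases from the centre of the member's hairpin on the horizontal axis. At each locus, arms on opposite strands lie over each other, such as miR-3074-5p and miR-24-3p, which overlap by 20 bases.

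For each of the 420 detected genes the libraries were then compared with Fisher's exact test (two-sided), set against the sum of the remaining miRNA genes. Its p-values were adjusted by Benjamini-Hochberg over all 420. The test compares the reads of these libraries and no condition. Of the 21 members tested, 2 were higher in replicate 2 and 4 lower, while 27.1% and 29.8% of all genes tested were. The other 15 did not pass. The median log2 ratio of replicate 2 over 1, on log2(CPM + 0.5), was -0.13 for members and -0.07 for all genes tested, and the median size of the difference was 1.27-fold and 1.23-fold. Of the members 76.2% lay within 1.5-fold, as did 75.0% of all. In all, 6 of 21 members passed, against 239 of 420 genes. The detected members had lower levels, with a median of 6.84 CPM against 85.3 CPM, and the part of level in these counts and medians was not tested.

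Mir3083 was the member that differed most. Its log2 ratio was 2.48 (95% exact binomial interval 2.02 to 3.16; adjusted p = 9.95e-30 in the exact test), the second highest of the 420. Without regard to strand it was 1.90. Mir3099 was also higher in replicate 2, by 0.35 (0.27 to 0.42), which is 1.27-fold. In the other direction Mir3102 stood at -0.46 (-0.52 to -0.40), Mir3093 at -0.84 (-1.19 to -0.52), Mir3064 at -0.64 (-1.13 to -0.19; adjusted p = 0.0095 in the exact test) and Mir3074-1 at -1.62 (-3.10 to -0.81; adjusted p = 4.78e-04). Intervals are those of the raw ratio, without the 0.5 CPM. The most abundant pair, Mir3102 and Mir3099, thus moved in opposite directions, and a ratio of 1.87 between them in replicate 1 became 1.06 in replicate 2. Mir3059, the third, did not pass at -0.13 (-0.32 to 0.05; adjusted p = 0.231 in the exact test). Mir3107 was not tested, having 1 count in replicate 1.

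**Figure D5:**
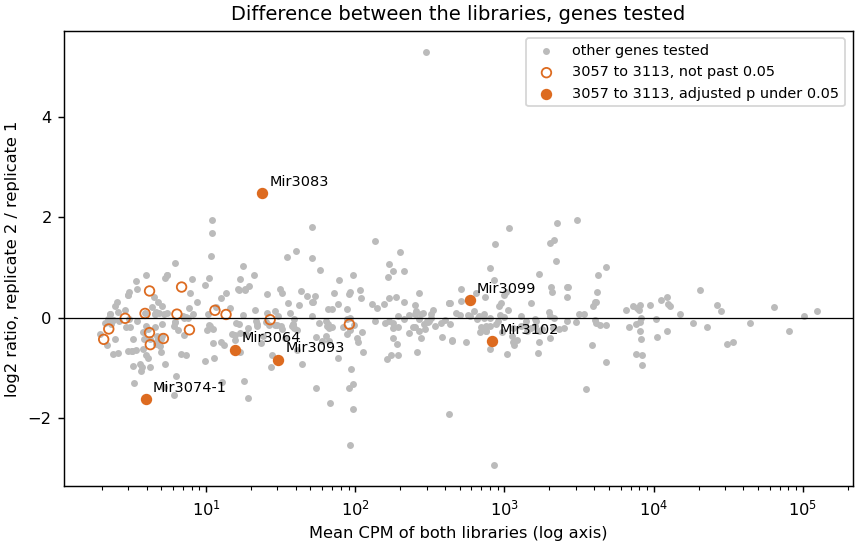
log2 ratio of replicate 2 over replicate 1 (vertical axis) against mean CPM (horizontal log axis) for the 420 genes tested; grey points are other genes, open circles members that did not pass and filled circles the 6 members with adjusted p under 0.05. Mir3083 at 2.48 and Mir3074-1 at -1.62 lie farthest from 0 among the members.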

How the data were processed

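MicroRNA-seq reads were counted per gene in 2 libraries of 1 group. The authors deposited whole-number read counts per miRNA gene, not normalized and not pooled, on mm10 with GENCODE M21, per the notes deposited beside the tables. Which aligner and adapter trimming were used is not stated by the labels or notes used here. The tables hold a count column without regard to strand and 1 per strand; column 3, with the larger total, was taken as sense and column 4 as antisense. The 4 leading lines of reads given to no gene stayed out of totals and tests, among them reads mapping to several places (45.9% and 48.4%), unmapped reads (11.8% and 11.2%) and reads outside annotated genes (3.60% and 3.69%) of 11666435 and 16280072 reads. How reads of the hybrid strain with base differences from mm10 were mapped is not given either.

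Positions, hosts and hairpins came from GENCODE M21, in which all 2202 identifiers were found; mature sequences came from RefSeq (GRCm38.p6, the same build as mm10). CPM is counts per 1000000 sense counts on miRNA genes. Genes reaching 10 counts in each library counted as detected and were tested with Fisher's exact test (scipy 1.17.1, Benjamini-Hochberg, threshold 0.05), since 1 group gives edgeR's quasi-likelihood test no contrast. Log2 ratios had a pseudocount of 0.5 CPM. Hairpins were folded with RNAfold 2.7.2. Tested on simulated counts of replicate 2 against replicate 1, over 2202 genes with 200 changed 2-fold, the test recovered 92.9% of the 112 changed genes it tested and called 0 of 420 in unchanged data. Between the libraries themselves, of 1 group, 239 of 420 passed, so the 0 holds for the simulated counts only. Alternatives were TMM factors (edgeR 4.0.16) and DESeq2 1.42.0 size factors with exact binomial tests, other count minimums, the column without strand, the deeper library thinned to 4517648 counts, a pseudocount of 5 CPM, other denominators and member sets, and leaving out each replicate.

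The members, lists and rules were chosen with earlier results of these data known. Named were all members with at least 10 counts in both libraries, those opposite another miRNA gene with their partners, those past the threshold and those with more antisense than sense reads; sequences were printed for the 10 highest members, the opposite pairs and arms with a shared seed. Mir9-1, Mir124a-1, the members with lower counts, the splice-site hairpins and the Mir3083 locus were named after their values or positions were seen.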

Additional observations from a re-analysis of the deposited data

Results flagged for a closer look

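Mir3083 had reads on the strand opposite to its hairpin, a column that the levels above do not use: 31 counts in replicate 1 and 68 in replicate 2, where a count of 0 would allow 3. GENCODE M21 has no miRNA gene on that strand. The other 3 such genes, with at least 10 antisense counts in both libraries, were Mir5620 with 19 and 28, Mir7240 with 12 and 13, and Mir708 with 10 and 12, beside 21 and 30, 265 and 327, and 9017 and 12200 sense counts.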

How the results depend on the processing

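The number of detected members, 21, was 32 at a minimum of 1 count, 24 at 5 and 5 at 100, and 22 to 23 when either replicate was left out. Their share of 0.169% was 0.162% to 0.175% when a replicate was left out, 0.193% with the most abundant gene taken out of the denominator and 0.183% in the column without regard to strand. It was 0.0277% without Mir3102 and Mir3099, an alternative added after the data were seen. The 6 members that differed between the libraries were the same 6 with TMM factors, DESeq2 size factors and the deeper library thinned. They were 7 at a minimum of 1 count and without a filter, where Mir3107 joined them, 5 without regard to strand, where Mir3074-1 has no count, and 3 at a minimum of 100 counts, which leaves 5 members to test. Of the single log2 ratios, 3 changed sign, with no call on either side: Mir3088 from -0.0148 to 0.0175 (TMM) and 0.0224 (DESeq2), and Mir3086 from -0.0423 to 0.0341 with the deeper library thinned. The strand shares of the opposite pairs ran from 2.07% to 21.7% for Mir3074-1 and from 0.990% to 10% for Mir3107 with either replicate left out, and stayed at 0 for Mir3074-2. No paired analysis was possible because the series has 1 group. Depth limits members under 10 counts: the intervals of their ratios span several fold.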
